A study of Mus musculus with 2 samples.

Results

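Striated muscle, the tissue of skeletal muscle and heart, carries a small set of miRNAs that most other tissues hold at low levels. The 6 members described here are the rows of the deposited tables whose identifier has the GENCODE M21 name Mir206, Mir133b, Mir208a, Mir208b, Mir499 or Mir1b. They are 6 of the 2202 miRNA genes in the tables and were chosen by name. Each was measured by miRNA sequencing in adrenal gland tissue from female B6CASTF1/J mice, a hybrid strain, at an age of 4 days, without treatment or genotype groups. The series holds 2 libraries of this 1 group, numbered biological replicates 1 and 2. Their descriptions number the females differently, but a single donor identifier is attached to both, so it is uncertain whether the spread between the libraries is one between animals.

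As background, miRNAs are short RNAs cut from a hairpin precursor, and they repress mRNAs that pair with their seed, bases 2 to 8 of the mature strand. Mir206 and Mir133b come from a locus active in skeletal muscle and its progenitors, where miR-206 favours differentiation and repair. Mir208a, Mir208b and Mir499 lie in introns of myosin heavy chain genes and take part in the control of slow and fast myosin. Mir208a belongs to the alpha myosin gene of heart muscle, Mir208b to the beta myosin gene of heart and slow fibres, and Mir499 to a related slow myosin gene. Mir1b is named after the miR-1 family, the most abundant miRNAs of heart and skeletal muscle, but is annotated on the strand opposite to Mir1a-2. Its mature sequence was not available here, so whether it has the miR-1 seed was not checked. The adrenal gland consists of a cortex that makes steroid hormones and a medulla that makes catecholamines, neither of which is striated muscle.

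The mature strands show which members could act on the same mRNAs and how far reads can tell them apart. RefSeq (GRCm38.p6) held sequences for 5 of the 6 members. The strand usually taken as the active one is given 5′ to 3′, with the seed in capitals.
miR-206-3p: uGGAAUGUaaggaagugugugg
miR-133b-3p: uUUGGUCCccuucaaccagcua
miR-208a-3p: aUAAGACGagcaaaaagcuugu
miR-208b-3p: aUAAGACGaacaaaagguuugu
miR-499-5p: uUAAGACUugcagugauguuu

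By seed, these strands form 4 groups, of which 1 holds a pair. MiR-208a-3p and miR-208b-3p share all 7 seed bases and are identical over their first 9 bases. They differ at 3 of 22 positions, counted from the 5′ end, with miR-208a-3p first: G10A, A16G and C18U. MiR-499-5p has the same bases as both at 6 of the 7 seed positions, the exception being G8U, so the 3 myosin-hosted members share bases 2 to 7. The seed of miR-206-3p is also that of the miR-1 family, and the seed of miR-133b-3p is that of the miR-133 family. Of the mature entries in the table used here, miR-6349 and miR-6382 carry the seed of miR-206-3p as well, and their genes had 0 reads in both libraries.

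Reads were counted over the whole hairpin, so the arms were not told apart. The hairpin of Mir206 is shown because this gene held nearly all reads of the set; capitals mark the 5p and 3p strands.
Mir206 hairpin: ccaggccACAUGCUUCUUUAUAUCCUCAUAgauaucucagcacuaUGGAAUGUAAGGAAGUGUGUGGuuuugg
Reads that map to several places were counted for no gene. Hairpins were compared on their annotated strands only. A run of at least 18 bases in common with another annotated miRNA hairpin was found there for Mir133b only, which shares one with Mir133a-1 and Mir133a-2. The other 5 members, Mir206 among them, had no such partner on that strand. Mir1b, however, covers all 72 bases of Mir1a-2 on the opposite strand, and Mir1a-2 shares a run with 1 other hairpin. Reads of Mir1b over that run can map to several places as well. The levels of Mir133b and Mir1b are therefore uncertain and can be too low, and they are given as uniquely mapped reads.

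Mir206 (ENSMUSG00000065559) lies on chromosome 1 at 20679010 to 20679082 on the plus strand (mm10), in an intron of the long non-coding gene Gm28653. Mir133b (ENSMUSG00000065480) follows at 20682769 to 20682887, within an exon of the same gene, with 3686 bases between the hairpins. Mir208a (ENSMUSG00000065432) lies on chromosome 14 at 54949060 to 54949142, minus strand, in intron 29 of a 39-exon transcript of Myh6. Mir208b (ENSMUSG00000077928) lies at 54975700 to 54975776 on the same strand, in intron 31 of a 41-exon transcript of the neighbouring Myh7. Mir499 (ENSMUSG00000076312) lies on chromosome 2 at 155622880 to 155622958, plus strand, in intron 19 of a 42-exon transcript of Myh7b. Mir1b (ENSMUSG00000080662) lies on chromosome 18 at 10785446 to 10785567, plus strand, in an intron of Mib1. It covers all 72 bases of Mir1a-2, which lies on the opposite strand. It also lies in an intron of the non-coding gene Mir133a-1hg, which is on the opposite strand. The other 5 members, shown in the map of the loci, lie on the strand of the gene that holds them, as Mir1b does for Mib1.

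**Figure D1:**
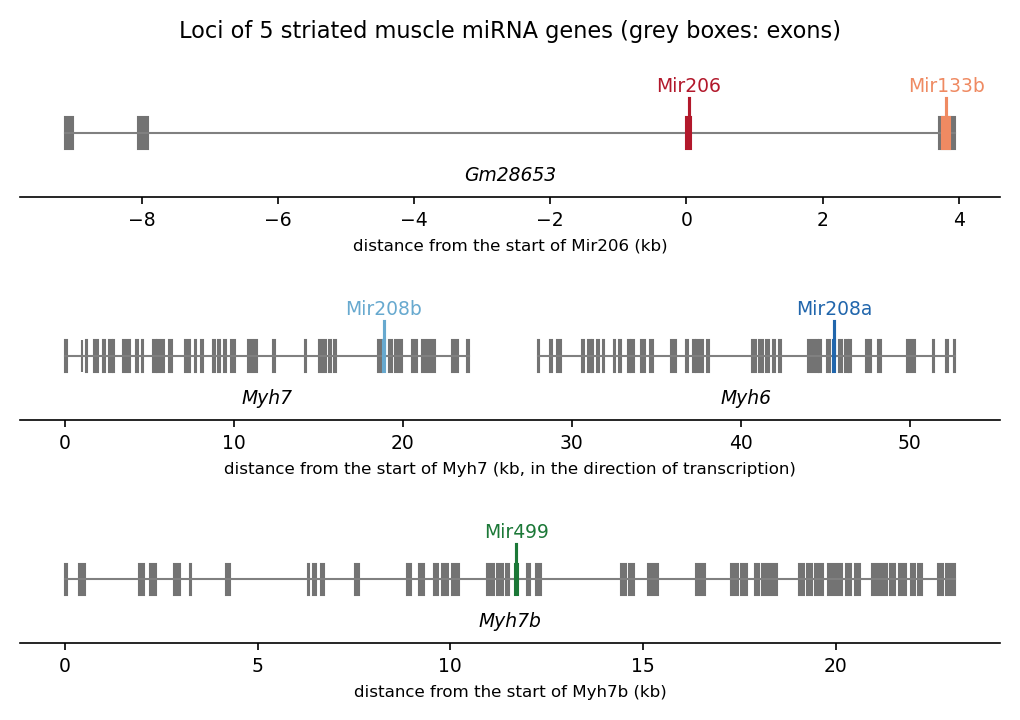
Position of 5 members within the genes that hold them, as distance in kb from the start of Mir206, Myh7 or Myh7b. Grey boxes are exons of 1 annotated transcript per gene and coloured boxes are hairpins; Mir206, Mir208a, Mir208b and Mir499 lie in introns and Mir133b lies in an exon.

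Replicate 1 had 4960537 reads on the annotated strand of miRNA genes and replicate 2 had 4506482, which were 42.4% and 39.9% of all reads. A further 25.9% and 27.8% mapped to several places. At these depths a gene with 0 reads can hold a share of up to 6.05e-05% and 6.66e-05% of the uniquely mapped miRNA reads (3 reads). Levels are given as CPM, these reads scaled to a total of 1000000 in each library, with no division by hairpin length, since the mature strands listed above differ by at most 1 base in length.

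The 6 members together had 6215 reads in replicate 1 and 39146 in replicate 2, or 0.125% and 0.869% of the miRNA gene reads (mean 0.497% ± 0.526, SD, n = 2). Mir206 made up 98.9% and 99.3% of them. The other 5 members together had 69 and 270 reads. By reads, the set in this tissue was thus almost entirely a skeletal muscle miRNA, and the cardiac Mir208a was at the limit of detection. The cells these reads came from were not identified, and in bulk tissue the number of cells that hold a miRNA and its amount per cell cannot be told apart.

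Mir206 had 6146 reads in replicate 1 and 38876 in replicate 2. Its share was 0.124% (95% Wilson interval 0.121 to 0.127) and 0.863% (0.854 to 0.871). These levels of 1239 and 8627 CPM (mean 4933 ± 5224, SD, n = 2) placed it at rank 86 and rank 26 of the 2202 genes. Replicate 2 was the high library, and the SD over the libraries exceeded the mean. Mir206 stood at rank 40 of the 377 detected genes by mean CPM, between Mir376a (5212 CPM) and Mir191 (4732 CPM). A gene is called detected here with at least 10 reads in both libraries.

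Mir133b, the other miRNA of that locus, had 9 and 29 uniquely mapped reads (1.81 and 6.44 CPM) and was not detected by the read minimum. Replicate 2 was again the higher library. For each Mir133b read there were 683 reads of Mir206 in replicate 1 and 1341 in replicate 2. The change in that ratio was 1.96-fold, with an exact 95% interval of the odds ratio from 0.817 to 4.26, so these counts did not resolve whether the pair kept its proportion.

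Of the myosin-hosted members, Mir499 was the most abundant, with 23 reads in replicate 1 and 179 in replicate 2 (4.64 and 39.7 CPM, mean 22.2 ± 24.8, SD, n = 2). Mir208b, hosted by the beta myosin gene, had 19 and 56 reads (3.83 and 12.4 CPM, mean 8.13 ± 6.08, SD, n = 2). Mir208a, hosted by the alpha myosin gene, had 0 and 2 reads, both at or under the limit of 3 reads, and no fold is given for it. Both slow-fibre members, Mir499 and Mir208b, were therefore higher in replicate 2, and Mir208a was not measurable in either library. The name slow-fibre does not exclude heart, since the host gene of Mir208b belongs to heart as well. By mean CPM, Mir499 stood at rank 282 and Mir208b at rank 322 of the 377 detected genes.

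Mir1b went the other way, with 18 uniquely mapped reads in replicate 1 and 4 in replicate 2 (3.63 and 0.888 CPM). Its hairpin overlaps Mir1a-2 on the other strand, so the assignment rests on read strand alone. The tables list the same 18 and 4 reads on the strand opposite to Mir1a-2, and the 5 and 2 reads of Mir1a-2 itself appear as reads opposite to Mir1b. Counted without regard to strand, both genes are at 0, since reads over overlapping genes were then set aside as ambiguous.

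**Figure D2:**
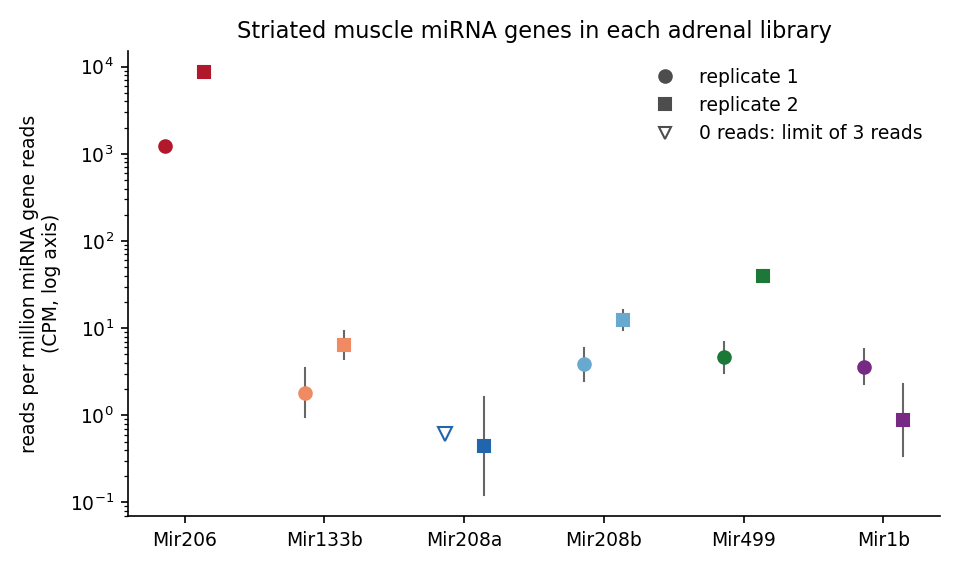
CPM of each member in each library on a log axis, with circles for replicate 1, squares for replicate 2 and bars for the 95% Wilson interval of the share (counting error only). Mir206 lies at 1239 and 8627 CPM, and every other value is at or below 39.7 CPM; the open triangle marks Mir208a in replicate 1, which had 0 reads, at the limit of 3 reads.

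Mir206 led the members in both libraries, and the order of the others was resolved in replicate 2 better than in replicate 1. Mir206 exceeded Mir499, the next member, 267-fold in replicate 1 (exact 95% interval 178 to 422) and 217-fold in replicate 2 (188 to 253). In replicate 1, Mir499, Mir208b, Mir1b and Mir133b followed with 23, 19, 18 and 9 reads, and no neighbours among these 4 differed beyond counting error. In replicate 2 the order was Mir499, Mir208b, Mir133b and Mir1b, with each step beyond counting error. Mir499 exceeded Mir208b 3.20-fold there (2.36 to 4.40), Mir208b exceeded Mir133b 1.93-fold (1.21 to 3.14), and Mir133b exceeded Mir1b 7.25-fold (2.55 to 28.4). Mir1b and Mir208a, with 4 and 2 reads, were not resolved. Mir133b and Mir1b were counted from uniquely mapped reads only and can be too low, so their places in both orders are uncertain.

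The libraries were then compared gene by gene. The exact two-sided binomial test used here sets each gene's reads in the 2 libraries against TMM-scaled library sizes. It compares these libraries and not conditions, and takes counting error as its only error. Folds from it are of scaled reads and so differ from ratios of CPM by 0.13 on the log2 scale. Among all 377 detected genes, 35.5% were called higher in replicate 2 (Benjamini-Hochberg adjusted p under 0.05), and 6.37% were called with at least a 2-fold ratio in that direction. With all reads but those of Mir126a as the scale, calls were 77 higher in replicate 2 and 189 in replicate 1, against 134 and 123 with TMM.

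The 3 detected members were each called higher in replicate 2, by more than 2-fold. Mir499 was 9.38-fold higher (exact 95% interval 6.06 to 15.2), with an adjusted p of 1.35e-37 in the exact binomial test. Its ratio ranked first among the 377 detected genes. Mir206 was 7.62-fold higher (7.42 to 7.83), with an adjusted p too small to be held as a number, and its ratio ranked at 3. Mir208b was 3.55-fold higher (2.08 to 6.33), with an adjusted p of 6.42e-07 in the exact binomial test, and ranked at 6. The median log2 ratio of these 3 was 2.93, beside 0.04 over all detected genes, whose SD was 0.97.

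Mir133b and Mir1b were below the read minimum in 1 library, and their ratios are given with intervals. Mir133b was 3.88-fold higher in replicate 2 (1.79 to 9.33), and Mir1b was 3.73-fold higher in replicate 1 (1.23 to 15.2). When all 480 genes with at least 10 reads summed over the libraries were tested, the adjusted p of the exact binomial test was 0.000287 for Mir133b and 0.019 for Mir1b. In that wider test 29% of all genes were called higher in replicate 2 and 26.9% in replicate 1. Both members had under 10 reads in their lower library, so these calls rest on few reads.

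With 1 library on each side, the spread between animals cannot enter a test. EdgeR's exact test was run on the libraries one against the other, with a biological coefficient of variation of 0.433 taken from the same pair. It sets each gene against the differences of all genes in this pair, and a p above the threshold does not show that a gene did not differ. In this exact test the adjusted p was 0.0798 for Mir499. It was 0.0957 for Mir206 and 1 for Mir208b. Of all detected genes 1.86% passed this test, none of them higher in replicate 2. At an unadjusted p under 0.05 the count higher in replicate 2 was 5 genes, or 1.33%, among them Mir499 (p = 0.00183) and Mir206 (p = 0.00254), whereas Mir208b had an unadjusted p of 0.0748 in edgeR's exact test.

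**Figure D3:**
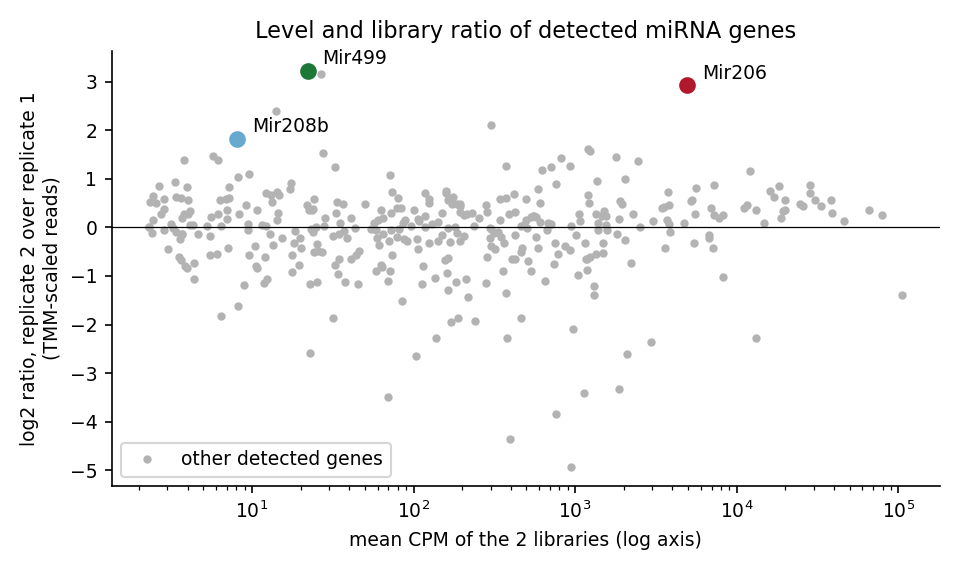
Log2 ratio of TMM-scaled reads, replicate 2 over replicate 1, against mean CPM on a log axis for the 377 detected genes. Each point is a gene; Mir499 (3.23), Mir206 (2.93) and Mir208b (1.83) are coloured and lie at the upper edge of the cloud, at very different levels.

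Ratios of members to each other do not depend on library scaling. Odds ratios with exact 95% intervals were computed for the 10 pairs among the 5 members with at least 10 reads summed over the libraries. Pairs of other genes were not computed, so no share over all genes stands beside them. For Mir206 and Mir499 the ratio was 0.813 (0.502 to 1.26), so a difference between the skeletal and this slow-fibre member in how they moved was not detectable at this depth. By these counts Mir208b moved less than both, with intervals that were not adjusted for the 10 pairs. Mir206 reads per Mir208b read went from 323 to 694, an odds ratio of 2.15 (1.20 to 3.67), and Mir208b reads per Mir499 read went from 0.826 to 0.313, an odds ratio of 0.380 (0.183 to 0.796). The 2 slow-fibre members thus differed in their ratio by more than counting error.

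Mir133b was not resolved from Mir208b (odds ratio 1.09, 0.407 to 3.10) or from Mir499 (0.416, 0.165 to 1.13). Mir1b differed from each of the other 4. Its odds ratios ran from 12.8 (Mir208b per Mir1b, 3.64 to 58.8) to 34.0 (Mir499 per Mir1b, 10.1 to 150.2), with wide intervals set by its 4 reads in replicate 2. These intervals cover counting error only, since PCR copies cannot be told from separate molecules here.

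**Figure D4:**
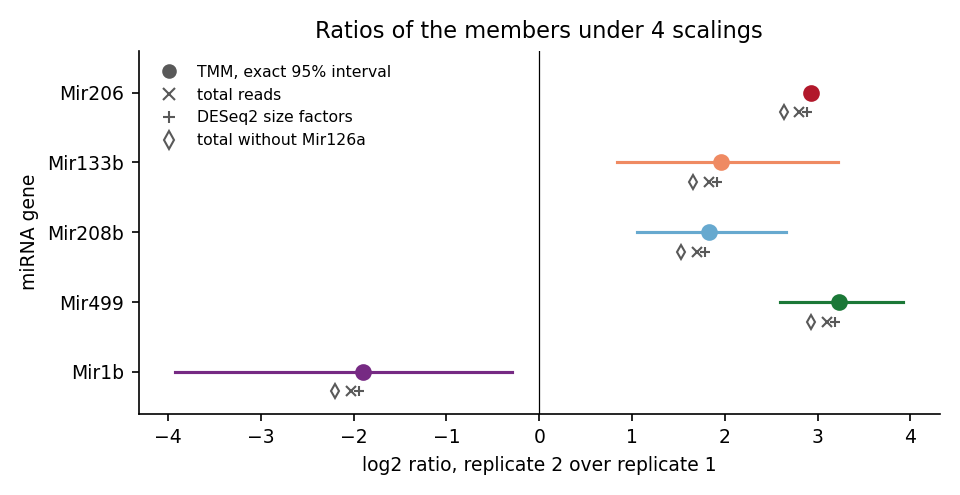
Log2 ratio, replicate 2 over replicate 1, of the 5 members with at least 10 reads; circles and lines give TMM-scaled values with exact 95% intervals, and smaller grey marks below give the value under 3 other scalings. Mir206, Mir133b, Mir208b and Mir499 stay above 0 and Mir1b below 0 under each of these 4 scalings.

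The detected genes with the ratio nearest to that of Mir206 (log2 2.93) were Mir26a-1 (3.15), Mir499 (3.23) and Mir669e (2.40). Those nearest to Mir499 were Mir26a-1, Mir206 and Mir669e. Nearest to Mir208b (1.83) were Mir380 (1.61), Mir145a (1.57) and Mir493 (2.11). Likeness here is the absolute difference of 1 log2 ratio over 2 libraries, and many unrelated genes can be alike by it. The detected genes next above and next below a member in mean CPM had smaller ratios. Mir26a-1, whose ratio was near that of Mir499, was also near it in level, at a mean of 26.7 beside 22.2 CPM. Mir26a-2, the other gene copy of miR-26a, went the other way, with 320 and 119 reads and a log2 ratio of -1.16. Shared runs were not looked up for these nearest genes, so the values of Mir26a-1 are not those of miR-26a as a whole. Mir376a and Mir191, next to Mir206 in mean CPM, had log2 ratios of 0.54 and 0.10, the latter with its sign reversed when total reads set the scale. Mir3074-1 and Mir452, next to Mir499, had 0.35 and 0.45, and Mir1968 and Mir6944, next to Mir208b, had 1.05 and 0.61.

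Of the 8 other miRNA genes listed for striated muscle, 7 were in the tables under the listed names and 2 were detected. Mir378a, also known from brown fat, had 63137 and 87680 reads and was 1.67-fold higher in replicate 2. Mir486, also known from erythroid cells, had 101 and 125 reads and was 1.49-fold higher in replicate 2 (adjusted p = 0.00524, exact binomial test). Both hairpins share runs with others. The gene copies of miR-1a and miR-133a, which dominate the miRNA pool of muscle, had almost no uniquely mapped reads. Mir1a-1 had 1 and 1, Mir1a-2 had 5 and 2, Mir133a-1 had 0 and 3, and Mir133a-2 had 0 and 1. Each of these 4 shares a run with another hairpin, so their reads set no limit on the mature miRNA. Mir133c had 0 in both.

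Lists of miRNAs of other cell types are given beside the members, with calls to be read against 35.5% of all detected genes called higher in replicate 2 and 32.6% in replicate 1. The smooth muscle and mesenchymal list held 3.05% of replicate 1 and 3.77% of replicate 2, with 2 of its 5 detected genes called higher in replicate 2 and 3 in replicate 1. The brown fat list took 1.40% and 2.09%, with 3 of 6 called higher in replicate 2 and 1 in replicate 1. The epithelial list moved against the muscle members, at 0.471% and 0.116%, with 6 of 7 called higher in replicate 1 and 1 in replicate 2. The endothelial list took 17.1% and 7.51%, with 2 genes called in each direction. Mir126a alone had 777971 and 246547 of that list's 850035 and 338275 reads, so the fall in the sum is that of 1 gene. The neuroendocrine list took 4.02% and 4.56%, with 2 of 4 called higher in replicate 2 and 1 in replicate 1. With 4 to 7 detected genes in each list, these counts are a description and show nothing about a cell type. The members and the 4 gene copies of miR-1a and miR-133a, 10 genes in all, took 0.125% and 0.869%. That sum leaves out Mir133c and also Mir378a and Mir486, which other cell types hold as well; Mir378a alone had more reads than the 10 genes together. No gene of these 10 or of the other 5 lists had 0 reads in both libraries. Whether other tissue in the samples had a part in the ratios of the members was not tested.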

How the data were processed

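MiRNA sequencing libraries of 2 adrenal samples of 1 group were used. The authors deposited raw read counts per miRNA gene; per the file headers, reads were placed on mm10 and counted over GENCODE M21. The sources used here do not name the aligner or counting tool. Every table has 3 count columns (either strand, annotated strand, opposite strand, as read from the values) and 4 leading rows that name no gene. Library sizes and tests leave these rows out. The annotated-strand column was used. Symbols and positions came from GENCODE M21, and sequences from RefSeq (GRCm38.p6).

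CPM, shares with Wilson intervals, exact binomial tests with Benjamini-Hochberg adjustment over the 377 detected genes, and exact conditional odds ratios were computed with scipy 1.17.1. TMM factors (1.05 and 0.956, over all genes) and the exact test came from edgeR 4.0.16. DESeq2 1.42.0 gave alternative size factors. The binomial test was tested on simulated data with counting error only, which cannot show how it behaves when libraries differ by more than that. Alternatives covered scaling, read minimum, strand column, denominator and test. Members, gene lists and tests were chosen with earlier results of these data known. Named genes are the members, listed muscle miRNAs, and the detected genes nearest to a member in ratio or level. Nothing beyond the labels shows whether the libraries come from separate animals. Binomial p-values take counting error as the only error, and the spread used in edgeR's exact test may be technical. Intervals cover counting error only.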

Additional observations from a re-analysis of the deposited data

Results flagged for a closer look

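In the column for the strand opposite to the gene, which the comparisons do not use, Mir1b had 5 reads in replicate 1, above the limit of 3 reads, and 2 in replicate 2. The other 5 members had 0 reads there in both libraries. Mir1b overlaps Mir1a-2 on that strand, and the same reads are the count of Mir1a-2.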

How the results depend on the processing

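Mir206, Mir499 and Mir208b kept their direction under each alternative that could test them, with log2 ratios of 2.63 to 2.93, 2.93 to 3.23 and 1.53 to 1.83. Mir133b stayed between 1.66 and 1.96 and Mir1b between -2.20 and -1.90. Under edgeR's exact test the calls were lost, at log2 ratios of 2.93 for Mir206, 3.22 for Mir499 and 1.82 for Mir208b: 0 members and 0 genes were called higher in replicate 2 (0 with at least 2-fold) and 7 in replicate 1, with 24 genes at an unadjusted p under 0.05. That test adds a spread estimated from the same pair. Scaling without Mir126a gave 77 genes higher in replicate 2, 189 in replicate 1 and 14 with at least 2-fold higher in replicate 2; it moved the median log2 ratio by -0.30, and total reads moved it by -0.13. TMM factors over detected genes alone, chosen after seeing the data, gave 120 and 133 calls. The members' share was 0.869% without replicate 1 and 0.125% without replicate 2. Ratios cannot be had without either library. With at least 100 reads summed, Mir208b was not tested. Mir1b had no value on either strand combined. No paired analysis was possible because the series has 1 group. Depth limits Mir208a, Mir133b and Mir1b, each with at most 29 reads.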
